A study of Daphnia magna with 84 samples.

Results

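The comparison described here sets Daphnia magna given the lowest of 6 coal ash concentrations, 0.015 nM Hg/L, against animals at concentration 0. It takes 9 exposed animals (3 each at days 6, 10 and 17) and 9 animals of concentration 0 (3 each at the same days), which is 18 of the 84 libraries of the series, and day is a blocking factor. Animals were taken by their labelled concentration and day, and no measured value entered the choice. Concentrations are named by mercury for convenience, and each stands for the whole mixture of coal ash constituents. Exposure was by diet: the green alga Chlamydomonas reinhardtii was held in the coal ash mixture before it was fed to the animals, per the labels' protocols. What the animals at concentration 0 received beyond that label is not given in the sources used here. Each library holds the rRNA-depleted RNA of 1 whole animal, with no label for strain, clone or brood, and the age at the start of exposure is not given. Whether the 3 animals of a group came from separate vessels is also not given, so p-values measure the spread between these animals.

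Daphnia magna is a planktonic freshwater crustacean that filters algae from the water and is widely used in toxicity testing. Females usually reproduce without males, and growth, moulting and egg production follow each other in cycles, so single animals taken on the same day can be at different points of a cycle. In whole animals, fewer cells that hold a transcript and less of it per cell cannot be told apart. The table gives gene models by identifier alone, and 0 of the identifiers matched the reference gene table, so models are named by ID and position and no function is given for any of them. Positions are contig or scaffold coordinates as in the authors' table, whose genome build is not given in the sources used here.

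Total counts of the 18 libraries ranged from 11615188 to 26275508. Between 86.5% and 96.95% of a library fell in 5 gene models, led by APZ42_024615 with 30.5% of all counts, APZ42_003886 with 19.6% and APZ42_004030 with 17.3%, followed by APZ42_024616 with 14.8% and APZ42_003885 with 9.32%. The counts outside these 5, which are the depth behind the other values, ranged from 767609 to 2596374. The exposed day 10 replicate 3 stood apart: it was the library with 767609, it had 11507 models with at least 1 count where the median of the 18 was 15196.5, and 29.3% of its counts were in APZ42_004030. Counts of calls, and the depth values that follow, are given with and without it.

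Depth and composition differed between the groups by less than the tests could call. The share of counts in the 5 most abundant models was 91.9% ± 2.79 (SD, n = 9) in exposed animals and 90.7% ± 2.16 (SD, n = 9) at concentration 0, a difference of 1.21 percentage points (two-sided exact permutation test within days over 8000 arrangements, p = 0.184, adjusted p = 0.459 over 5 measures). Counts outside those models were lower in exposed animals by 0.21 on the log2 scale (exact permutation p = 0.303, adjusted p = 0.472). Exposed libraries had 14440 ± 1610 models with at least 1 count (SD, n = 9) against 15450 ± 938.2 (SD, n = 9), a difference of -1019 models with an exact permutation p of 0.0528 (adjusted p = 0.264). None of the 5 measures passed after adjustment. Without the exposed day 10 replicate 3 the share differed by 0.781 percentage points (exact permutation p = 0.343 over 4000 arrangements), the counts outside by -0.10 on the log2 scale (exact permutation p = 0.559) and the models with a count by -673.1 (exact permutation p = 0.125).

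Day of sampling held more of the variation than concentration did. Of the total sum of squares of log2 CPM (counts scaled by library size) over the 11285 models tested, 32.2% lay between days, 6.89% between the concentrations after day, 8.01% in the combination of concentration and day, and 52.9% between animals within groups. Concentration took 5.88% of the degrees of freedom, day 11.8%, the combination 11.8% and animals within groups 70.6%, so that per degree of freedom concentration held more than the animals within groups did. The first principal component held 26% of the variance and the second 23.6%. At day 17 the 3 exposed animals scored 75.8 to 85.4 on the first component, above the 3 animals of concentration 0 at 32.2, -42.9 and 22.1. At day 6 all 6 animals lay between -33.4 and 3.70. At day 10 the exposed animals were spread from -68.0 to 61.5 and the controls from -85.5 to -16.5.

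**Figure D1:**
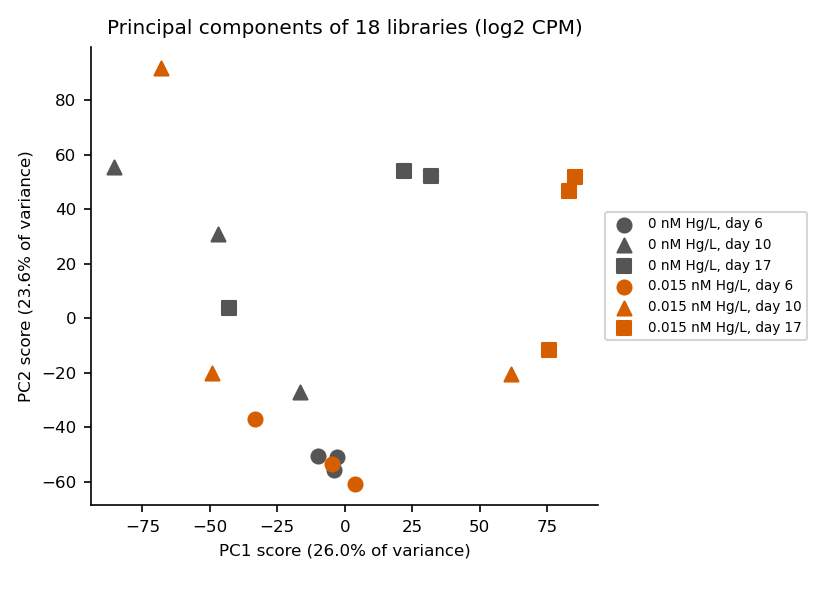
Scores of the 18 libraries on the first principal component (horizontal) and the second (vertical) of log2 CPM, with 26% and 23.6% of the variance. Orange is 0.015 nM Hg/L, grey is 0, and the symbol gives the day. The 3 exposed animals of day 17 (orange squares) lie furthest to the right, from 75.8 to 85.4, followed by an exposed day 10 animal at 61.5, and the day 6 animals of both groups lie together.

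Animals were most alike at day 6 and least alike at day 10. Over the 2065 models with a mean of at least 5 CPM, the median SD of log2 CPM among 3 animals was 0.23 at concentration 0 and 0.20 in exposed animals at day 6, 0.52 and 0.73 at day 10, and 0.31 and 0.36 at day 17.

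Over the 3 days together, no gene model differed between 0.015 nM Hg/L and concentration 0 at an adjusted p below 0.05 in edgeR's quasi-likelihood test with day as a block (0 of 11285 models tested, 0%, smallest adjusted p 0.051). An unadjusted p below 0.05 was reached by 1173 models, 10.4% of those tested, of which 496 (4.4%) were higher and 677 (6%) lower in exposed animals. DESeq2 called 45 models, 4 higher and 41 lower, and limma-voom with quality weights called 2, both lower. The count also moved when single libraries were left out: it was 17 without exposed day 10 replicate 3, 14 without concentration 0 day 10 replicate 2 and 3 without concentration 0 day 17 replicate 1, and 14 without day 10 altogether. The 95% interval of the change lay within 2-fold in either direction for 6143 models (54.4%) and within 4-fold for 10026 (88.8%). For models with a mean of 5 to 20 CPM the first share was 71.7%, for those under 1 CPM 31.6% and for those over 100 CPM 33.9%.

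The lowest p-values over the 3 days belonged to 4 weakly expressed models, all lower in exposed animals, that missed the threshold by little. They were chosen after their values were seen, as the 4 with an adjusted p below 0.1. APZ42_024670 (scaffold01725, 52198 to 58865, minus strand, 18 exons) had 0.614, 0.998 and 0.581 CPM at concentration 0 on day 6, 2.33, 0.581 and 1.68 on day 10 and 0.708, 2.68 and 1.23 on day 17. In exposed animals it had 0.180, 0.139 and 0.129 CPM on day 6, 0.0584, 0.178 and 0.623 on day 10 and 0.385, 0.356 and 0.0633 on day 17. The groups did not overlap at days 6 and 17, and at day 10 the exposed replicate 3, the shallow library, lay above the lowest control. The fitted change was -2.50 on the log2 scale (SE 0.41, edgeR adjusted p = 0.051), and the summed counts were 31 in exposed animals and 218 at concentration 0, a level 5.99-fold lower (95% interval 4.10 to 9.04, counting error only).

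APZ42_024504 (scaffold01663, 8104 to 10955, 11 exons) was close to the limit of detection in exposed animals. It had 0, 0 and 0 counts on day 6, 1, 0 and 2 on day 10 and 1, 0 and 1 on day 17, against 2, 5 and 1 at concentration 0 on day 6, 52, 5 and 33 on day 10 and 12, 14 and 15 on day 17. At day 17 the controls were at 0.943, 1.25 and 1.09 CPM and the exposed animals at 0.0550, 0 and 0.0633 CPM, with no overlap. The 5 exposed and 139 control counts give a level 23.7-fold lower (95% interval 9.91 to 74.1, counting error only), with an edgeR adjusted p of 0.051. At day 6 the control counts were too few to show how far the exposed animals lay below them.

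APZ42_011832 (scaffold00027, 28766 to 31075, 9 exons) summed to 14 counts in the 9 exposed animals and 259 in the controls, 15.8-fold lower (95% interval 9.23 to 29.2, counting error only; edgeR adjusted p = 0.054). It never exceeded 0.415 CPM in exposed animals, and in controls it ranged from 0.0758 to 4.38 CPM. The controls of day 17 were at 0.236, 4.38 and 1.45 CPM. APZ42_024869 (scaffold01764, 181099 to 183893) summed to 10 and 76 counts, 6.48-fold lower (95% interval 3.34 to 14.1, counting error only, edgeR adjusted p = 0.054). At day 10 it had 2, 4 and 0 counts in controls and none in the 3 exposed animals. The change of these 4 models stayed below 0 in each of the 30 alternatives computed for each. DESeq2 called all 4, with adjusted p-values from 7.1e-05 to 0.0053, and limma-voom called none of them, with adjusted p-values from 0.078 to 0.31.

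APZ42_031730 (scaffold02994, 408038 to 412786, plus strand, 16 exons) was taken up because it was also named against the higher doses. At concentration 0 it had 1.72, 4.27 and 2.52 CPM on day 6, 21.2, 0.808 and 16.1 on day 10 and 5.98, 17.7 and 5.44 on day 17. In exposed animals it had 0.315, 0.831 and 0.453 CPM on day 6, 0.234, 4.55 and 5.19 on day 10 and 0.275, 0.830 and 0.316 on day 17. All exposed animals were below all controls at days 6 and 17, and the ranges overlapped at day 10. The change was -2.84 (SE 0.64, edgeR adjusted p = 0.21).

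**Figure D2:**
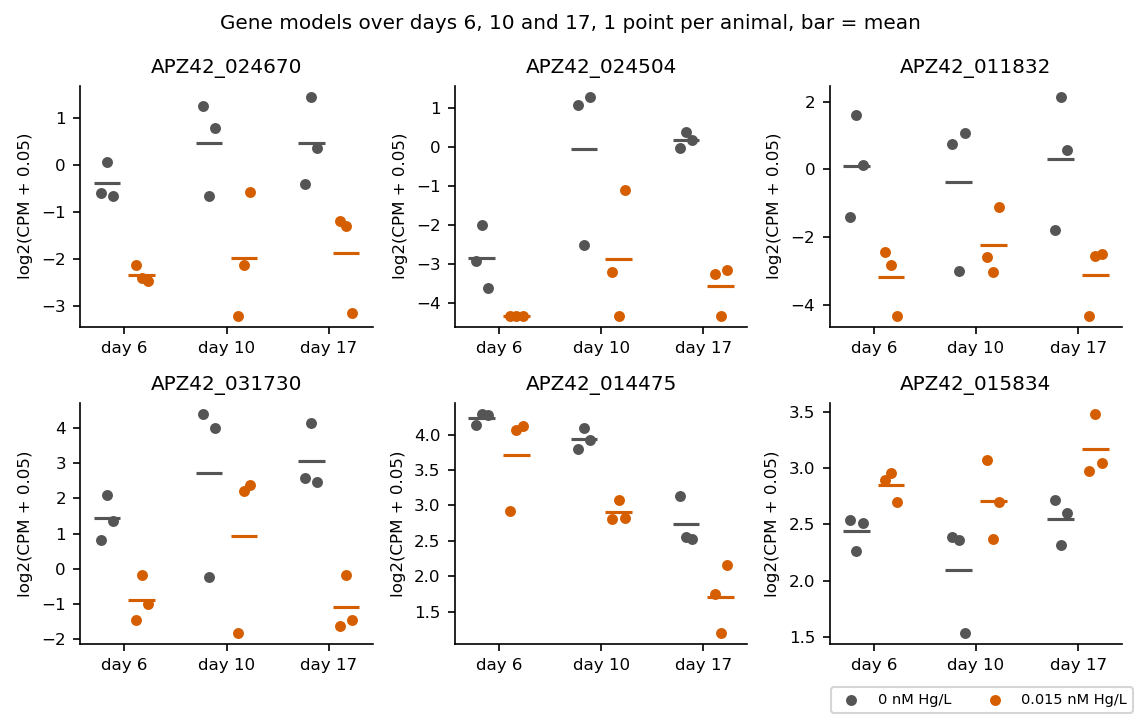
Level of 6 gene models in each animal as log2(CPM + 0.05) (vertical) at days 6, 10 and 17 (horizontal), grey for concentration 0 and orange for 0.015 nM Hg/L, with a bar at the mean of 3 animals. In the first 4 panels the exposed animals lie below the controls at days 6 and 17 without overlap, and at day 10 the groups overlap. APZ42_014475 was lower without overlap at each of the 3 days and APZ42_015834 higher at days 6 and 17.

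Among models with a mean of at least 5 CPM and the same direction at all 3 days, the 2 lower and the 2 higher ones of smallest p are given here, and none of them passed the test. APZ42_014475 (scaffold00443, 220199 to 227588, 13 exons) had 17.6, 19.6 and 19.4 CPM at concentration 0 and 7.55, 16.7 and 17.4 in exposed animals on day 6. On day 10 the values were 13.8, 17.1 and 15.1 against 6.95, 8.39 and 7.06, and on day 17 they were 8.73, 5.81 and 5.74 against 3.30, 2.25 and 4.43. Exposed animals were below controls without overlap at each day and every animal of day 17 was below every day 6 animal of its group. The change was -0.83 (SE 0.18, edgeR adjusted p = 0.21). APZ42_016949 (11 exons) changed by -0.98 (SE 0.23, edgeR adjusted p = 0.22), with 3.04, 1.92 and 1.66 CPM in exposed animals against 8.56, 5.20 and 6.57 at day 10, the day on which its groups did not overlap.

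APZ42_015834 (4 exons) was the most even of those that were higher in exposed animals. It had 5.77, 4.75 and 5.65 CPM at concentration 0 against 7.37, 7.71 and 6.44 on day 6, 5.18, 5.08 and 2.85 against 8.35, 5.12 and 6.44 on day 10, and 6.53, 4.92 and 6.03 against 7.81, 11.2 and 8.23 on day 17. Its change was 0.55 (SE 0.14, edgeR adjusted p = 0.29), and the groups overlapped at day 10 and not at days 6 and 17. APZ42_013951 changed by 0.85 (SE 0.24, edgeR adjusted p = 0.29), with 10.5, 17.1 and 10.5 CPM in exposed animals against 6.45, 5.19 and 7.77 at day 17. Its groups overlapped at day 6, with 3.87, 3.74 and 5.24 CPM against 3.36, 2.44 and 3.81, and at day 10, with 13.2, 3.59 and 4.98 against 4.42, 3.41 and 1.97.

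Models whose exposed animals were all on one side of the controls at each of the 3 days numbered 0 above and 8 below, which is 0% and 0.0709% of the 11285 tested. The 8 included APZ42_014475, APZ42_011060 (25 exons, change -2.01, SE 0.40, edgeR adjusted p = 0.13) and APZ42_032553 (change -1.66, SE 0.45, edgeR adjusted p = 0.29), and the other 5 had changes from -2.49 to -0.75.

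Day by day, edgeR called models at day 17 and not at days 6 and 10, and which of days 6 and 10 differed less depended on the measure. At day 6, 0 of 11285 models were called by edgeR (0%), and 191 (1.69%) had an unadjusted p below 0.05, of which 85 were higher (0.753% of those tested) and the others lower (0.939%). DESeq2 called 3 and limma-voom 1. The share at an unadjusted p below 0.05 was 0.85% without exposed replicate 1, 0.87% without concentration 0 replicate 2, 3.25% with the 6 libraries of that day alone and 4.84% with limma-voom. All 3 exposed animals lay above all 3 controls for 501 models (4.44%) and below them for 544 (4.82%). The 2 lower models named for day 6 were APZ42_014825, with 6.96, 17.8 and 5.04 CPM in controls and 1.57, 1.02 and 0.420 in exposed animals (change -3.31, SE 0.97), and APZ42_017480, with 6.59, 27.6 and 6.53 against 1.12, 2.12 and 0.323 (change -3.51, SE 1.14). Neither was called, since the smallest edgeR adjusted p at day 6 was 0.41. APZ42_017552, the higher model of smallest p, rested on 1 animal: exposed replicate 1 had 765 counts (34.4 CPM) and the other 5 animals 2 to 5 counts. Without that animal its change was -0.66 in place of 6.44. APZ42_025678 had 18.5, 6.05 and 6.69 CPM in exposed animals and 6.43, 2.44 and 5.85 in controls, with overlapping ranges.

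At day 10, 0 models were called by edgeR (0%, smallest adjusted p 0.73), and 731 (6.48%) had an unadjusted p below 0.05, 394 higher (3.49%) and 337 lower (2.99%). DESeq2 called 1 and limma-voom none. The share at an unadjusted p below 0.05 depended on single animals: it was 4%, 15.5% and 13.2% without exposed replicates 1, 2 and 3, 12.8% without concentration 0 replicate 2, 10.8% with the depth covariate and 1.39% with the 6 libraries of that day alone. Exposed animals were all above the controls for 231 models (2.05%) and all below for 403 (3.57%). APZ42_022327 (14 exons) had 3.66, 3.06 and 3.58 CPM in controls and 9.35, 12.3 and 6.44 in exposed animals (change 1.45, SE 0.33), and APZ42_028399 (14 exons) had 6.91, 7.43 and 9.06 against 64.2, 14.0 and 19.5 (change 2.06, SE 0.57). APZ42_023488 (15 exons) had 24.0, 25.1 and 35.3 CPM in controls and 13.1, 14.2 and 20.4 in exposed animals (change -0.83, SE 0.25). In these 3 models the groups did not overlap at day 10. APZ42_032566 was lower by the fit, but 1 control animal held 147.8 CPM and the other 5 animals 0.533 to 1.68.

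At day 17, 5 of 11285 models were called by edgeR (0.0443%), all lower in exposed animals and all with an adjusted p of 0.044. An unadjusted p below 0.05 was reached by 1436 models (12.7%), 431 higher (3.82%) and 1005 lower (8.91%), and the count was 930 without concentration 0 replicate 2 and 582 with 2 surrogate variables. Exposed animals were all above the controls for 989 models (8.76%) and all below for 1361 (12.1%). Each of the 5 had a mean under 5 CPM, so they fall outside the rule for named models and were named after their values were seen.

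APZ42_028985 (6 exons, 13113 bases of exon) had 3.07, 5.10 and 1.38 CPM in the day 17 controls and 0.110, 0 and 0.190 in the exposed animals. The summed counts were 115 and 5, a level 25.9-fold lower (95% interval 10.8 to 81.3, counting error only). At day 6 the same model had 4.95, 2.99 and 4.04 CPM in controls and 4.95, 2.86 and 3.07 in exposed animals, so the groups overlapped there. APZ42_018681 (3 exons) had 1.18, 4.02 and 1.67 CPM in the day 17 controls and 1, 0 and 1 counts in the exposed animals, 46.7-fold lower over 83 and 2 counts (95% interval 12.5 to 392, counting error only). At day 6 it had 0.860, 0.639 and 0.904 CPM against 0.719, 0.600 and 0.873.

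APZ42_021619 (6 exons) had 1.26, 2.77 and 2.40 CPM in the day 17 controls and 0.165, 0.237 and 0.253 in exposed animals, 10.0-fold lower over 80 and 9 counts (95% interval 5.02 to 22.7, counting error only). APZ42_015197 (8 exons) was the most even of the 5 among animals, with 3.62, 3.49 and 3.19 CPM against 0.715, 1.07 and 0.696 at day 17, a fitted change of -2.07 (SE 0.34). It was also lower without overlap at day 6, with 2.7, 2.6 and 2.46 CPM against 1.89, 1.48 and 2.13. APZ42_011969 (8 exons) had 7, 11 and 9 counts in the day 17 controls and 1 count in each exposed animal, 10.1-fold lower (95% interval 3.12 to 52.2, counting error only).

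**Figure D3:**
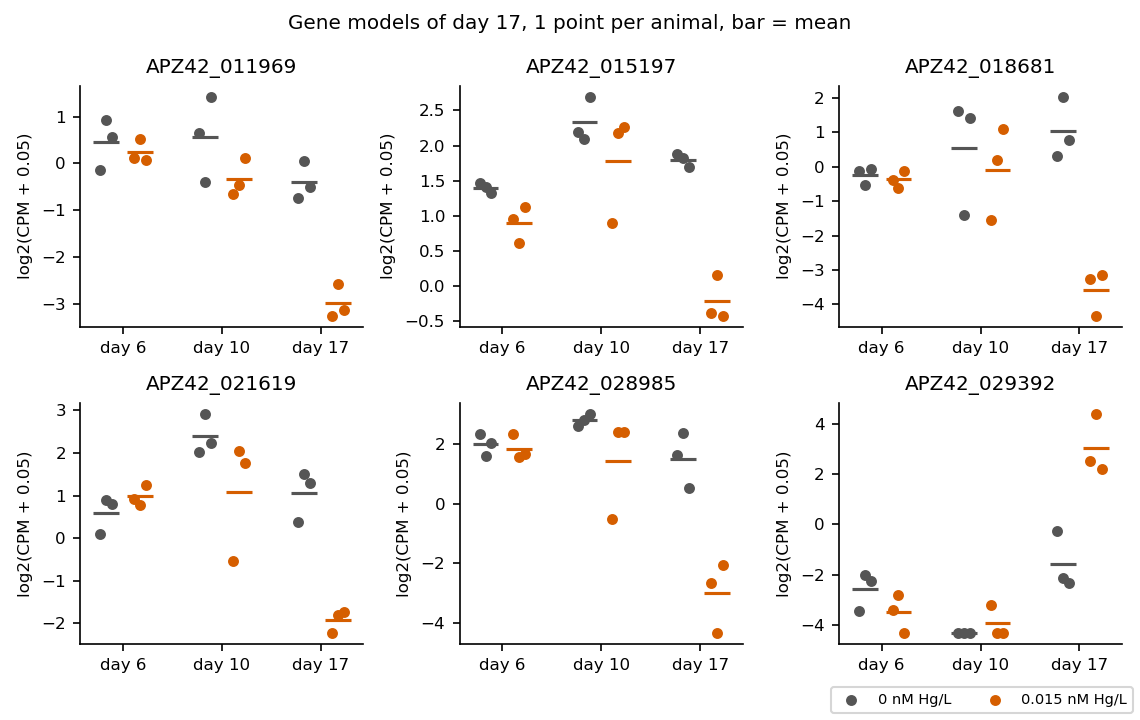
Level of 6 gene models in each animal as log2(CPM + 0.05) (vertical) at days 6, 10 and 17 (horizontal), grey for concentration 0 and orange for 0.015 nM Hg/L, with a bar at the mean of 3 animals. The 5 models called at day 17 and APZ42_029392, which was higher but not called, separate the groups at day 17 without overlap. The groups also separate for APZ42_015197 at day 6 and for APZ42_028985 at day 10.

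The 4 models named by the rule for day 17 had larger counts and adjusted p-values just above the threshold. APZ42_029392 (3 exons) had 10, 2 and 2 counts in controls and 105, 180 and 72 in exposed animals, 22.7-fold higher (95% interval 13.3 to 41.9, counting error only; edgeR adjusted p = 0.091). It was at 0 to 5 counts in every animal of days 6 and 10. APZ42_026670 had 3.85, 0.805 and 1.96 CPM in controls and 18, 27.6 and 7.21 in exposed animals (change 2.99, SE 0.60, edgeR adjusted p = 0.095). APZ42_027763 (13 exons) had 14.4, 38.5 and 13.1 CPM against 1.43, 1.07 and 3.99 (change -3.33, SE 0.64, edgeR adjusted p = 0.091), and APZ42_020539 (20 exons) had 6.92, 16.5 and 7.70 against 1.48, 0.593 and 2.15 (change -2.85, SE 0.59, edgeR adjusted p = 0.095). In all 4 the groups did not overlap at day 17.

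The nearest tested models on either side of the named ones, up to 2 each way on the same scaffold, were also looked at. Beside 8 models named for day 17, 6 of 32 (18.8%) had an unadjusted p below 0.05 in edgeR's test, against 12.7% of all models tested. Of these 6, 5 changed in the direction of the named model and 1 in the opposite one. The neighbours of APZ42_029392 included APZ42_029386 (change 3.65, unadjusted p = 0.0012) and APZ42_029381 (change 3.15, unadjusted p = 0.04). APZ42_027774 beside APZ42_027763 changed by -3.63 (unadjusted p = 0.00094) and APZ42_020506 near APZ42_020539 by -2.90 (unadjusted p = 0.00033). At day 6 the count was 3 of 15 (20%, against 1.69% of all models tested), 2 in the same direction. There APZ42_014827 beside APZ42_014825 changed by -2.93 (unadjusted p = 0.0088). The other 2 were APZ42_017554 (change -2.92, unadjusted p = 0.0025) and APZ42_017557 (change 4.74, unadjusted p = 0.036). Both lay beside APZ42_017552, whose own change rested on 1 animal, and they changed in opposite directions. At day 10 the count was 0 of 14 (0%, against 6.48% of all). Over the 3 days together it was 3 of 35 (8.57%, against 10.4% of all), 2 in the same direction. Whether neighbouring models share reads was not tested.

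The number of day 17 calls was not stable. It was 0 without concentration 0 replicate 2 or 3, and 0 without exposed replicate 1 or 2. Without concentration 0 replicate 1 it was 4, of which 2 were among the 5, and without exposed replicate 3 it was 9, with none of the 5 among them. DESeq2 called 1.54% of the models tested, 51 higher and the others lower, 4 of the 5 among them, and limma-voom called none. The count was also 0 with DESeq2 size factors, with edgeR's older fit, with the depth covariate, with 2 surrogate variables and with the 5 most abundant models removed.

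Over the concentrations, the day 17 levels of these models did not rise or fall steadily with dose. APZ42_028985 had a median of 3.31 CPM at concentration 0, 0.117 at 0.015, 5.32 at 0.06, 3.36 at 0.12, 0.244 at 0.25, 1.68 at 1 and 3.16 at 4 nM Hg/L, on the scale of the 21 libraries of day 17. APZ42_021619 had medians of 2.57, 0.261, 4.26, 5.11, 0.488, 0.390 and 1.87 CPM in the same order. APZ42_029392 had 0.192, 6.13, 0.0406, 0.0611, 3.35, 1.84 and 0.0747 CPM. For each of these 3 models the median of 0.015 nM Hg/L was nearer to those of 0.25 and 1 nM Hg/L than to that of 0.06 nM Hg/L, the next dose up. These are levels of 3 animals each, and the differences among the doses were not tested at single days.

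The difference between concentrations changed with day for 0 models in edgeR's joint test (0% of 11285, smallest adjusted p 0.72), and 592 (5.25%) had an unadjusted p below 0.05. The latter count was 941, 979 and 837 without exposed day 10 replicates 1, 2 and 3 and 367 without exposed day 6 replicate 1. DESeq2 called 21 and limma-voom none. The 2 models of smallest p were APZ42_017538, in which 1 control of day 17 had 1107 counts and 1 exposed animal of day 10 had 1247 while the other 16 animals had 0 to 36, and APZ42_017566, which had 351, 980 and 69 counts in the exposed animals of day 17 and 18, 2 and 3 in their controls. The sign of the change was the same at all 3 days for 4064 models (36%). Across the 11285 models the correlation of the changes was -0.06 between days 6 and 10, -0.13 between days 6 and 17 and 0.42 between days 10 and 17. Across the 2065 models with a mean of at least 5 CPM the same correlations were -0.28, -0.42 and 0.51. Models are not independent replicates, and libraries of a day enter all of its changes.

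Classes of models that can be formed from the table are set here beside all models tested over the 3 days. Of all models 4.4% were higher and 6% lower at an unadjusted p below 0.05, 10.4% together. Of 1101 tested models with 1 exon, 30 were higher and 84 lower, also 10.4% together. Their median change was -0.16 beside -0.03 for all models. Of 72 tested models with 30 or more exons 1 was higher and 7 lower (11.1%, median -0.12). Of 920 tested models on contigs 49 were higher and 40 lower (9.67%, median 0.03). Among the 40 models with the most counts 0 were higher and 4 lower (10%). Of 167 tested models on scaffold02581, 7 were higher and 5 lower (7.19%). Of 30 on scaffold01409 the counts were 3 and 0 (10%), and of 70 on scaffold03326 they were 4 and 4 (11.4%). Of 704 models with ENSRNA identifiers 3 passed the filter on low counts, and 1 of them was lower at an unadjusted p below 0.05. edgeR called none in any of these classes.

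Set directly against the next dose, 0.06 nM Hg/L, with no shared control animals, the lowest dose gave 12 called models of 11213 tested (0.107%), and all 12 were lower at 0.015 nM Hg/L in the same day-block edgeR test. An unadjusted p below 0.05 was reached by 844 higher (7.53%) and 1053 lower models (9.39%), and the groups did not overlap at any of the 3 days for 3 higher (0.0268%) and 31 lower models (0.276%). The 12 were weakly expressed, with means from 0.230 to 1.64 CPM, and their changes ran from -4.15 to -1.78. APZ42_024504 (-4.15, SE 0.75, edgeR adjusted p = 0.031), APZ42_011832 (-3.67, SE 0.70, edgeR adjusted p = 0.035) and APZ42_024670 (-2.77, SE 0.52, edgeR adjusted p = 0.038), which had the lowest p-values against concentration 0, were among them. The comparison shares the 9 exposed animals with that against concentration 0. The count was 282 without exposed day 10 replicate 3. It was 0 without exposed day 10 replicate 1, day 6 replicate 2 or any 1 of the 3 exposed day 17 animals. It was 2 without exposed day 6 replicate 3, and 4, 1 and 4 without day 10 replicate 1, day 10 replicate 2 and day 17 replicate 2 of 0.06 nM Hg/L, and 27 without exposed day 6 replicate 1. DESeq2 called 262 models, 82 higher and 180 lower, and limma-voom called 81.

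Of the models with at least 5 CPM, APZ42_015735 (4 exons) had 8.22 ± 1.99 CPM (SD, n = 3) at 0.015 against 10.3 ± 1.69 at 0.06 nM Hg/L on day 6, 4.29 ± 2.72 against 15.8 ± 4.18 on day 10 and 3.59 ± 0.899 against 9.89 ± 1.53 on day 17. Its change was -1.23 (SE 0.26, not called). APZ42_031730, the other lower model named by the rule, changed by -3.23 (SE 0.63, edgeR adjusted p = 0.062, not called). Its groups did not overlap at any of the 3 days. APZ42_023951 (13 exons, change 0.67, SE 0.16) and APZ42_028281 (6 exons, change 0.83, SE 0.20) were higher at 0.015 nM Hg/L and not called.

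Against the highest dose, 4 nM Hg/L, 20 of 10816 models were called (0.185%), 1 higher (0.00925%) and 19 lower (0.176%) at 0.015 nM Hg/L. An unadjusted p below 0.05 was reached by 871 higher (8.05%) and 802 lower models (7.41%), and the groups did not overlap at any of the 3 days for 13 higher (0.12%) and 14 lower models (0.129%). APZ42_031730 was the 1 called model with a mean of at least 5 CPM, with a change of -3.55 (SE 0.69, edgeR adjusted p = 0.044), and had 0.366 ± 0.183 CPM (SD, n = 3) against 13.6 ± 11.1 on day 6, 2.39 ± 1.93 against 11.9 ± 1.39 on day 10 and 0.349 ± 0.224 against 3.20 ± 4.00 on day 17. It was called in 7 of the 18 fits that left out 1 library. APZ42_024504 was called in this comparison too (-4.26, SE 0.79, edgeR adjusted p = 0.028). APZ42_034125 (change 0.71, SE 0.16), APZ42_013553 (change 0.66, SE 0.16) and APZ42_007866 (change -2.74, SE 0.61) were named by the rule and not called. The 4 nM Hg/L libraries were shallower, with a median of 1040876 counts outside the 5 most abundant models against 1594584 at 0.015 nM Hg/L, and the part of this in the calls was not tested beyond the fit with depth as a covariate, which called 40. The count was 540 without exposed day 10 replicate 3. It was 0 without exposed day 10 replicate 1, day 17 replicate 1 or 3 or day 6 replicate 2 or 3, and 0 without day 10 replicate 1, day 17 replicate 2 or day 6 replicate 1 of 4 nM Hg/L. It was 6, 34 and 84 without exposed day 10 replicate 2, day 17 replicate 2 and day 6 replicate 1. Of the 4 nM Hg/L libraries, leaving out day 10 replicate 2 or 3 gave 7 and 1, day 17 replicate 1 or 3 gave 62 and 33, and day 6 replicate 3 gave 37. DESeq2 called 390 models and limma-voom 163.

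A comparison added after these values were seen used all 45 animals of the 5 higher doses at days 6, 10 and 17. With 54 libraries in 1 edgeR fit and 1 mean for each concentration and day, 1448 of 12461 models were called (11.6%) between 0.015 nM Hg/L and the mean of the 5 higher doses, 777 higher (6.24%) and 671 lower (5.38%) at the lowest dose. The higher models changed by a median of 0.64 and the lower ones by a median of -1.05. More than 2-fold changes were fitted for 132 of the higher and 357 of the lower models. Calls were made in 404 of 5920 models under 1 CPM (6.82%), 735 of 4662 from 1 to 5 CPM (15.8%) and 309 of 1879 with at least 5 CPM (16.4%). The direction was the same at all 3 days for 1063 of the 1448. The calls rest on the mean of the same 3 daily differences, so this count is raised by the selection and does not measure agreement between days.

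The models named over days against concentration 0 can be placed in this larger comparison, which shares their exposed animals. APZ42_015834 was called higher (0.57, SE 0.13, edgeR adjusted p = 0.0046) and so was APZ42_013951 (0.63, SE 0.18, edgeR adjusted p = 0.021). APZ42_016949 (-1.04, SE 0.27, edgeR adjusted p = 0.013), APZ42_031730 (-2.44, SE 0.62, edgeR adjusted p = 0.011) and all 4 weakly expressed models were called lower, with APZ42_024504 at -3.52 (SE 0.78, edgeR adjusted p = 0.0036). APZ42_014475 was not called (-0.19, SE 0.27, edgeR adjusted p = 0.70). Against concentration 0 this model changed by -0.39 at 0.06, 0.06 at 0.12, -0.62 at 0.25, -1.22 at 1 and -1.07 at 4 nM Hg/L. It was not called in any of these fits, which share the animals of concentration 0. Of the 5 models called at day 17, APZ42_018681 (-1.90, SE 0.34, edgeR adjusted p = 0.00071), APZ42_011969 (-1.21, SE 0.33, edgeR adjusted p = 0.016) and APZ42_015197 (-0.69, SE 0.20, edgeR adjusted p = 0.019) were called lower, and APZ42_021619 and APZ42_028985 were not.

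Over all animals of days 6 to 17, on the scale of their 63 libraries, APZ42_015834 had a median of 7.01 CPM at 0.015 nM Hg/L with a range of 4.76 to 10.4 (n = 9), and medians from 4.34 to 5.26 CPM in the other 6 groups. Ranges overlapped throughout. APZ42_024670 had a median of 0.165 CPM at 0.015 nM Hg/L (0.0554 to 0.568, n = 9), 0.944 at 0, 1.01 at 0.06, 0.396 at 0.12, 0.899 at 0.25, 0.308 at 1 and 1.68 at 4 nM Hg/L. APZ42_024504 had 0 counts in 5 of the 9 exposed animals and a median of 0 CPM, against medians of 0.862 at 0, 0.526 at 0.06, 0.132 at 0.12, 0.200 at 0.25, 0.143 at 1 and 0.466 at 4 nM Hg/L. APZ42_031730 had a median of 0.416 CPM at 0.015 nM Hg/L, 4.97 at 0, 4.96 at 0.06, 3.57 at 0.12, 1.65 at 0.25, 0.758 at 1 and 12.4 at 4 nM Hg/L. For these 3 lower models 0.015 nM Hg/L had the lowest median of the 7 concentrations, with 1 or 0.12 nM Hg/L next. All models of this paragraph were chosen by their values in the same 9 animals of 0.015 nM Hg/L. That choice favours an extreme median at this dose, so these medians are not separate support for a difference.

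**Figure D4:**
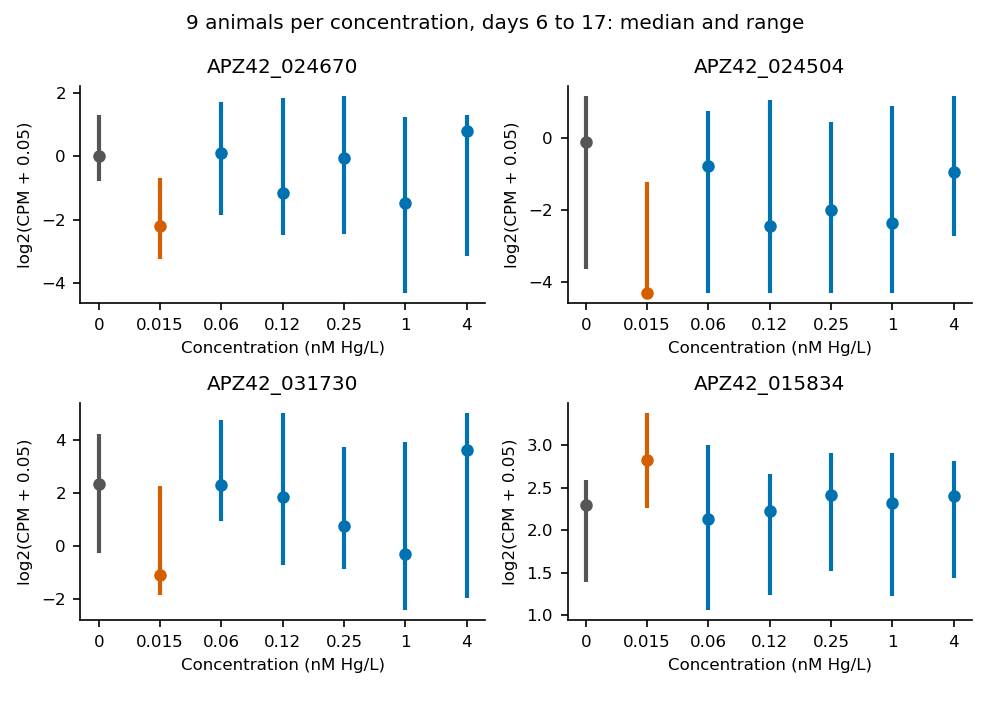
Median (point) and range (line) of 4 gene models over 9 animals of days 6, 10 and 17, as log2(CPM + 0.05) (vertical), at each of 7 concentrations in nM Hg/L (horizontal, evenly spaced). Grey is 0, orange 0.015 and blue the higher doses. APZ42_015834 has its highest median at 0.015 nM Hg/L (7.01 CPM) and the other 3 models their lowest, while ranges overlap between concentrations. The models were chosen by their values in the same animals of 0.015 nM Hg/L, which favours an extreme median there.

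The models named by the rule in the larger comparison varied widely among animals. APZ42_026945 was higher by the fit (4.08, SE 0.67, edgeR adjusted p = 0.00046), with high values in 4 of the 9 animals of the lowest dose. These were 20.8 and 3.93 CPM on day 6, 115.6 on day 10 and 92.8 on day 17, with 0.0634 to 0.357 in the other 5 animals. APZ42_032569 (3.27, SE 0.66, edgeR adjusted p = 0.0020) was high in the same 4 animals. It had 39.8 and 19.1 CPM on day 6, 29.1 on day 10 and 20.9 on day 17, and 0.0950 to 0.357 in the rest. APZ42_018858 (-2.93, SE 0.85, edgeR adjusted p = 0.021) and APZ42_021607 (-2.51, SE 0.54, edgeR adjusted p = 0.0040) were lower, and in both the highest exposed value, 3.93 and 13.2 CPM, was that of the shallow day 10 replicate 3. Without that library they changed by -3.78 (edgeR adjusted p = 0.0041) and -3.65 (edgeR adjusted p = 5.5e-05). APZ42_018858 was not called without day 10 replicate 1 (edgeR adjusted p = 0.079), day 17 replicate 3 (0.052) or day 6 replicate 2 (0.057). Without day 6 replicate 3 its edgeR adjusted p was 0.05 after rounding, at the threshold. For the 2 higher models, APZ42_026945 and APZ42_032569, medians over 9 animals were taken on the slightly different CPM scale of all 63 libraries of days 6 to 17. At 0.015 nM Hg/L the median was 0.379 CPM for each of the 2. This was below the 1.01 CPM at 0.06 nM Hg/L for APZ42_026945 and the 0.469 CPM at 0.25 nM Hg/L for APZ42_032569. Neither APZ42_026945 nor APZ42_032569 was called without day 10 replicate 1 (edgeR adjusted p = 0.44 and 0.43) or without day 17 replicate 3 (0.26 and 0.30). Both of these animals are among the 4 with high values.

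The same fit was made for every concentration against the mean of the other 6, over 63 libraries and 12643 models. For 0.015 nM Hg/L 1307 models were called (10.3%), 727 higher and 580 lower. For 1 nM Hg/L the count was 647, for 4 nM Hg/L 496, for 0.12 nM Hg/L 14, and for 0, 0.06 and 0.25 nM Hg/L edgeR called 0, with 828, 1195 and 1056 models at an unadjusted p below 0.05. Whether these counts differ from each other was not tested, and no library was left out of these fits. In the comparison with the 5 higher doses, leaving out day 10 replicate 1 of the lowest dose took the count from 1448 to 396, so the order of the concentrations may rest on single animals. Against concentration 0 with the day block, 12 models were called for 1 nM Hg/L and 0 for each of the other 5 doses. The share at an unadjusted p below 0.05 in these edgeR fits was 10.4% for 0.015, 3.7% for 0.06 and 1.35% for 0.12 nM Hg/L. For 0.25, 1 and 4 nM Hg/L it was 10.9%, 18.2% and 11.5%. Comparisons against concentration 0 share its 9 animals.

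**Figure D5:**
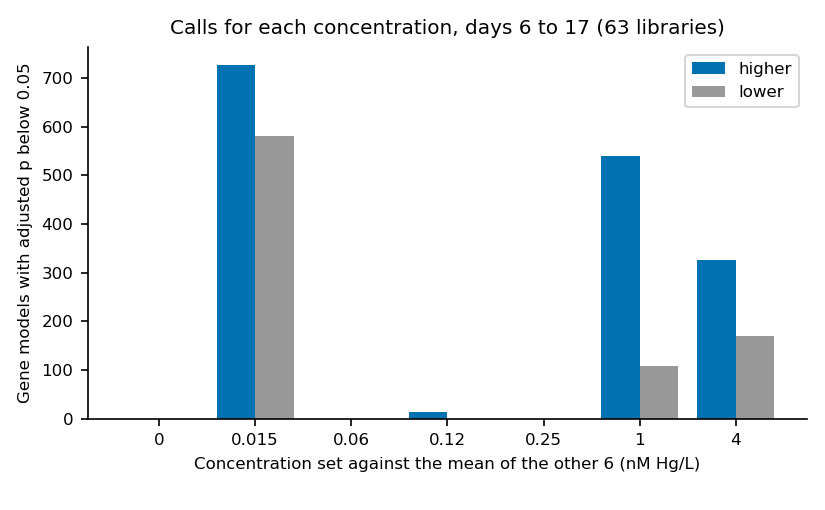
Number of gene models with an adjusted p below 0.05 (vertical), higher in blue and lower in grey, for each concentration in nM Hg/L (horizontal) set against the mean of the other 6 over days 6, 10 and 17. The lowest dose, 0.015 nM Hg/L, has 727 and 580, the total for 1 nM Hg/L is 647 and for 4 nM Hg/L 496, and 0, 0.06 and 0.25 nM Hg/L have 0. No library was left out of these fits.

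The count of 1448 depended on which animals were included, and in the fits made, which left out only animals of the lowest dose or those over 20% APZ42_004030, it was 396 or more. Leaving out 1 of the 9 animals of the lowest dose gave from 396 calls, without day 10 replicate 1, to 2804, without day 10 replicate 3. It was 923 without day 17 replicate 2 and 765 without day 6 replicate 2. DESeq2 called 1925, of which 1405 were among the 1448, and limma-voom 804, of which 668 were. Depth outside the 5 most abundant models had a median of 1594584 at 0.015 nM Hg/L and medians from 1040876 to 1717368 at the 5 higher doses, and with depth as a covariate 1925 models were called. Whether animals of the lowest dose shared a vessel, a day of handling or a sequencing run is not given in the sources used here, so such a difference and the concentration cannot be told apart.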

How the data were processed

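Whole animals were sequenced singly, with rRNA depletion and a kit that marks strand, per the labels' protocols. The submitters' processing notes name STAR 2.7.5b. Neither the build and annotation nor how reads were assigned to models, with or without strand, is stated in those notes or labels, so overlapping, antisense and near-identical models may share reads. The deposited table holds raw counts, not normalized, for 27350 gene models and 84 libraries. A reference gene table of assembly ASM2063170v1.1 held 0 of its identifiers, so lists by function could not be formed.

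Groups come from the labels' concentration and day, with 3 animals in each. Replicates are numbered in accession order, and no library pair of the 18 had identical counts. The comparison, models and classes were chosen with earlier results of these data known. The main test was run with edgeR 4.0.16 under R 4.3.3: filterByExpr at its minimum count of 10, TMM scaling, and the quasi-likelihood F test with robust shrinkage and no separate dispersion step, with Benjamini-Hochberg adjustment over all models tested. An adjusted p below 0.05 is a call, and an adjusted p is from edgeR where no other tool is named. The fit over days had day as an additive block (14 residual degrees of freedom), and single days and the joint test of concentration by day used 6 group means (12 residual degrees of freedom). Changes are log2, exposed minus comparison group. SE and 95% intervals were derived from the F statistic. Folds of summed counts carry exact binomial intervals for counting error only. CPM uses the TMM-scaled library size, and its scale belongs to the libraries fitted together. The fit was also run on simulated counts with known changes, and the outcome is not given here.

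The rule names the 2 highest and 2 lowest called models with a mean of at least 5 CPM, with the same sign at 3 days for fits over days, filled by smallest p where too few were called. Alternatives were DESeq2 1.42.0, its size factors within edgeR, limma-voom (limma 3.58.1, quality weights), edgeR's older fit and leaving the filter out. Others were all 84 libraries, the 5 most abundant models removed, 2 surrogate variables (sva 3.50.0), depth as a covariate and other groupings of the means. Libraries were also left out 1 at a time. For single days these were only the libraries of that day, and against the 5 higher doses only the animals of the lowest dose. Chosen after seeing the data were the comparison with the 5 higher doses, leaving out libraries with over 20% of counts in APZ42_004030, leaving out day 10, and the depth measures without the shallowest library.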

Additional observations from a re-analysis of the deposited data

Results flagged for a closer look

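For APZ42_032566 (scaffold03124, 4 exons) the exposed animals lay on opposite sides of the controls at 2 days. At day 6 all 3 exposed animals were above all 3 controls, with 1.39, 1.15 and 1.42 CPM against 1.02, 0.878 and 0.840, a difference of 0.489 in mean log2 CPM. At day 10 all 3 were below all 3 controls, with 1.11, 0.533 and 0.831 CPM against 1.29, 147.8 and 1.68, a difference of -3.001 that rests mostly on the control animal at 147.8 CPM. The difference between these 2 days was not tested by itself. Such a reversal without overlap between days occurred for 88 of the 11285 models tested, 0.78%.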

How the results depend on the processing

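No paired analysis was possible because replicate numbers follow accession order and pair no animals across groups. The count of calls against concentration 0 over days, 0 in the fit reported, was 3 with no filter, 45 with DESeq2, 2 with limma-voom, 2 with the 5 most abundant models removed, 25 with 2 surrogate variables, 38 with depth as a covariate, 7 without the libraries with over 20% of counts in APZ42_004030 and 14 without day 10, and from 0 to 17 when single libraries were left out. At day 6 it was 3 with DESeq2, 1 with limma-voom, 1 with the 6 libraries of that day alone and 0 to 0 without single libraries. At day 10 it was 1 with DESeq2 and 0 to 0 without single libraries. At day 17, where 0.0443% of models were called, the share was 0 with DESeq2 size factors, limma-voom, the older edgeR fit, the 5 most abundant models removed, 2 surrogate variables, the depth covariate or without the libraries over 20%, 0.05% with no filter, 1.54% with DESeq2, 0.0158% with all 84 libraries, 0.185% with that day's 6 libraries alone, and 0 to 0.0758% without single libraries. The joint test by day gave 21 with DESeq2 and 0 to 3 without single libraries, 3 being without 0.015 nM Hg/L day 10 replicate 1.

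Against 0.06 nM Hg/L, where 12 were called, the count was 24 with no filter, 262 with DESeq2, 81 with limma-voom, 4 with the older fit, 254 with all 84 libraries, 2 with surrogate variables, 24 with the depth covariate, 271 with 1 mean per concentration and day, and 0 to 282 without single libraries. Against 4 nM Hg/L, where 20 were called, it was 39 with no filter, 390 with DESeq2, 163 with limma-voom, 396 with all 84 libraries, 86 with surrogate variables, 40 with the depth covariate, 115 with 1 mean per concentration and day, and 0 to 540 without single libraries. Against the 5 higher doses, where 1448 were called, it was 960 with no filter, 804 with limma-voom, 651 with all 84 libraries, 2527 with surrogate variables, 957 with an additive day block, 2471 without the libraries over 20%, and 396 to 2804 without single animals of the lowest dose. The cause of these shifts was not tested. The 2 depth measures kept their direction and missed the threshold in every alternative run.

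Of 923 alternative values for 40 named results, 742 kept direction and call, 94 were no longer called, 86 became called and 1 changed sign: APZ42_017552 at day 6 was -0.66 without exposed replicate 1 and up to 7.04 without another animal. Over days the 95% interval lay within 2-fold for 31.6% of models under 1 CPM, 71.7% from 5 to 20 CPM and 33.9% over 100 CPM. The part of depth in these shares was not tested.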
